A study of Mus musculus with 2 samples.

Results

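Transcripts of the TRIM family of ubiquitin ligases were compared between 2 cultures of YTN16, a mouse gastric cancer cell line. The shControl culture (genotype given as WT) carried a control short hairpin RNA, and in the shGas6 culture (genotype given as Gas6 knockdown) the hairpin targeted Gas6; each gave 1 library. Both grew in DMEM with fetal bovine serum, MITO+ serum extender and antibiotics, and the labels do not say whether either culture was a clone or a pool. The members were all protein-coding genes of the deposited table whose symbol is Trim followed by a number and at most 1 letter, which gave 68 of 45777 genes. With 1 library per group there is no replicate check and no p-value. Intervals in brackets are exact 95% intervals for counting error only, and PCR copies of a molecule, which are not independent, may make them too narrow. They would also be too narrow if both reads of a pair were counted, which the sources used here do not say.

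TRIM proteins share an N-terminal tripartite motif of a RING finger, B-box zinc fingers and a coiled coil. The RING finger recruits a ubiquitin-conjugating enzyme, the coiled coil makes the protein a dimer, and the C-terminal domain chooses the target. Many members with a PRY-SPRY domain at the C-terminus act in innate immunity, as sensors of viral capsids or as ligases for signalling proteins, and a subset is induced by interferon. Others work in chromatin repression, on microtubules or in muscle.

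The libraries held 50756676 (shControl) and 51807140 (shGas6) counts, of which 92852 and 97335 fell on the 68 TRIM genes. Gas6 itself had 2480 counts in shControl and 731 in shGas6, which left 29.0% of the control level (26.6% to 31.5%). Of 5 epithelial markers, Cdh1, Krt8, Krt18 and Krt19 were between 112 and 2107 CPM (counts scaled to a common library total, with TMM factors) in shControl and between 218 and 2974 CPM in shGas6, whereas Epcam was at 0.629 and 0.503 CPM. Leukocyte transcripts, which matter here because several TRIM genes are abundant in macrophages, were scarce. Of 11 leukocyte markers, 3 reached 1 CPM (Cd68, Coro1a and Laptm5), Tyrobp was at 0 in both libraries, Ptprc was at 0.452 and 0.155 CPM, and the summed level was 8.38 CPM in shControl and 8.45 CPM in shGas6. None of 6 striated muscle markers reached 1 CPM in either library. Of 5 neuronal markers, Tubb3 (13.5 and 51.5 CPM) and Map2 (4.19 and 3.44 CPM) did, Syt1 was at 0.118 and 0.116 CPM, and Snap25 and Rbfox3 were at 0. In bulk RNA, fewer cells that express a gene and less RNA per cell cannot be told apart.

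The TRIM genes split into a small group with large differences and a broad majority near the diagonal. Of the 68 members, 55 had at least 1 count, and 44 were measured, which means at least 1 CPM in at least 1 library. Among the 44, shGas6 exceeded shControl by 2-fold or more for 7 (15.9%), and 5 (11.4%) were lower by that much. Over all 13367 measured genes the same marks were passed by 8.66% upwards and 6.21% downwards, together 14.9%. For the protein-coding genes among them the joint share was 14.4%. The median log2 ratio (shGas6 minus shControl) of the 44 members was -0.01, equal at this precision to the median of -0.01 over all measured genes. Low expression went with large ratios. Of the 17 members measured under 10 CPM in the higher library, 8 were past 2-fold (47.1%), against 37.0% of the measured protein-coding genes in that range. Of the 27 members at 10 CPM or more, 4 were past it (14.8%), against 9.21%. Of the 44 members, 38 reached 1 CPM in both libraries. The remaining 6 (Trim5, Trim10, Trim29, Trim30a, Trim30d and Trim31) did so in 1 library only and therefore had to differ, so the counts of members past 2-fold support nothing by themselves. Of the 1988 measured genes past 2-fold in either direction, 1472 had the whole counting interval beyond 2-fold. The same held for 9 of the 12 members past 2-fold, a similar share. The exceptions were Trim10, Trim17 and Trim31. Nearest to the mark on the higher side were Trim17 (2.21-fold) and Trim56 (2.24-fold) inside it and Trim16 (1.57-fold) and Trim24 (1.56-fold) outside it. On the lower side, Trim5 (2.97-fold) and Trim12a (3.53-fold) lay inside and Trim25 (1.46-fold) and Trim46 (1.37-fold) outside.

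**Figure D1:**
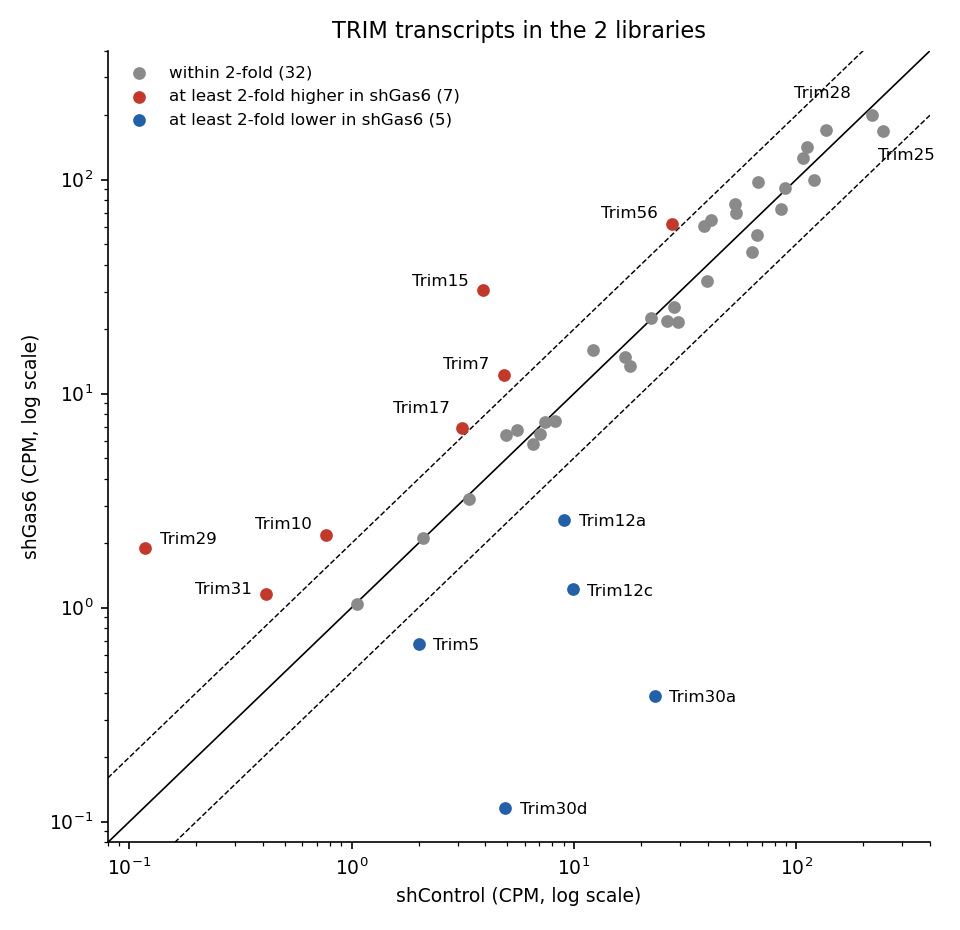
CPM of the 44 measured TRIM genes in shControl (horizontal axis, log scale) and shGas6 (vertical axis, log scale), 1 point per gene; the solid line marks equal levels and the dashed lines 2-fold. The 5 lower genes fall below the lower dashed line, Trim30a and Trim30d furthest and Trim5 and Trim12a nearest to it, while 32 genes lie between the dashed lines.

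In levels per transcript length, Trim28 led the family in both libraries, and 6 genes made up about as much of its total in each. On the scale of the authors' deposited TPM values, Trim28 was first in both, at 133.9 TPM in shControl and 127.1 TPM in shGas6. Trim28 encodes KAP1, the corepressor that KRAB zinc finger proteins bring to transposable elements. The next by mean TPM were Trim59, a membrane-anchored ligase (74.3 and 96.9 TPM), Trim35, a PRY-SPRY protein (73.0 and 95.04 TPM), Trim25, the ligase that modifies the RNA sensor RIG-I (87.3 and 62.0 TPM), Trim26 (66.2 and 80.7 TPM) and Trim47 (48.0 and 71.8 TPM). These 6 genes made up 49.9% of the summed TRIM TPM in shControl and 50.4% in shGas6, and the sum was 967 and 1059 TPM. Trim25 stood second in shControl and sixth in shGas6, and Trim56 eighteenth and eighth. The counts of these abundant genes were large, with narrow counting intervals, but these leave out the choice of scaling, which moved some ratios beyond them. The log2 ratio of Trim25 was -0.54, but -0.58 with upper quartile scaling and -0.49 on the deposited TPM. For Trim28 it was -0.12, but -0.17 and -0.08. For Trim35 it was 0.33, but 0.38 on the deposited TPM. Trim28 had 11132 and 10386 counts, 1.09-fold lower in shGas6 (1.06 to 1.12), and Trim25 had 12447 and 8695, 1.46-fold lower (1.42 to 1.497). In the other direction, Trim59 was 1.27-fold higher (1.22 to 1.31), Trim35 1.26-fold (1.22 to 1.30), Trim26 1.18-fold (1.14 to 1.22) and Trim47 1.44-fold (1.38 to 1.52). All 6 therefore stayed well within 2-fold, and neighbours in the order such as Trim59 and Trim35 differed by less than 2 TPM in each library.

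**Figure D2:**
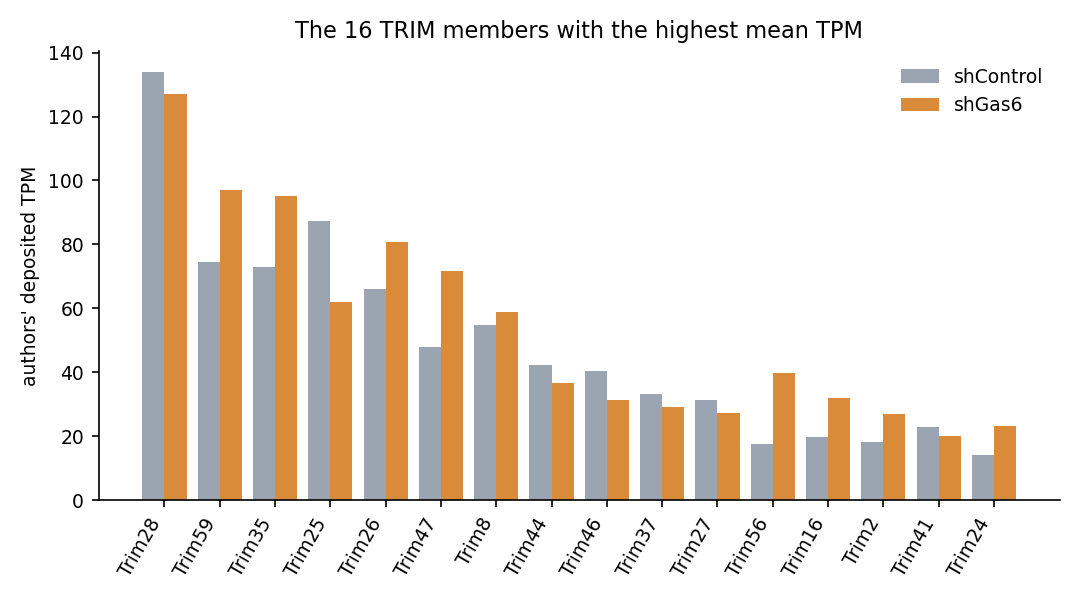
The authors' deposited TPM (vertical axis) in shControl and shGas6 for the 16 TRIM genes with the highest mean TPM, in that order; each bar is 1 library, so there are no error bars. Trim28 leads both libraries, and Trim56 is the gene of the 16 with the largest relative difference.

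The 5 members that were at least 2-fold lower in shGas6 all belonged to a block of interferon-type TRIM genes on chromosome 7. Over all measured genes 6.21% were lower by that much. Trim5, Trim30a and Trim30d reached 1 CPM in shControl only and so had to differ. With 1 CPM required in both libraries, Trim12a and Trim12c were the lower genes left, so the count of 5 supports nothing by itself. Trim30a, a mouse gene whose product is induced by interferon and dampens Toll-like receptor signalling to NF-kB, had 1175 counts in shControl and 20 in shGas6. That is 23.1 and 0.387 CPM, 59.8-fold lower (38.5 to 98.2). Its neighbour Trim30d, known in mice as an interferon-induced restrictor of tick-borne flaviviruses, had 249 and 6 counts and was 42.2-fold lower (19.1 to 116). Both were thus expressed in the control culture and close to absent in the other. Trim12c, which in mice acts with TRAF6 in interferon and NF-kB signalling, had 503 and 63 counts, 8.12-fold lower (6.24 to 10.7). Trim12a had 461 and 133 counts, 3.53-fold lower (2.90 to 4.31). Trim5, the mouse counterpart of the primate factor that intercepts retroviral capsids, had 102 and 35 counts, 2.97-fold lower (2.002 to 4.49). The order from the largest to the smallest fold was Trim30a, Trim30d, Trim12c, Trim12a and Trim5, and among these the intervals of neighbours in that order overlapped for Trim30a with Trim30d and for Trim12a with Trim5.

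The block holds 10 members within 289 kb (GRCm38, chromosome 7, 104218795 to 104507853), and its other measured members stayed within 2-fold. From the Trim6 end, the order is Trim6, Trim34a, Trim5, Trim12a, Trim34b, Trim12c, Trim30b, Trim30c, Trim30a and Trim30d. Trim6 (104218795 to 104235152), whose product builds free ubiquitin chains that activate the kinase IKK epsilon, had 283 and 348 counts, 1.21-fold higher (1.03 to 1.42). Trim34a (104244448 to 104262244), whose human counterpart works with TRIM5 against lentiviruses, had 419 and 385 counts, 1.11-fold lower (0.962 to 1.28). Trim34b (104329471 to 104336617) had 54 counts in each library. The 3 of them flank or interrupt the lower genes, with Trim34b lying between Trim12a (104299893 to 104315558) and Trim12c (104338754 to 104353358). Trim30a spans 104409025 to 104465193 and Trim30d 104470014 to 104507853. Trim30c (104379117 to 104400852) went from 7 counts (2.81 to 14.4) to none, and Trim30b was at 0 in both. With the empty library set at 3 counts Trim30c was 2.37-fold lower, a figure that leaves out the counting error of the 7. Within 1 Mb on each side and inside the block lay 125 other genes, of which 6 were measured, with log2 ratios from -0.20 to 1.89 and a median of 0.26. None of the 6 was 2-fold lower, which is near the background for so few genes, since 6.21% of all measured genes were. The single measured gene inside the span had a log2 ratio of -0.20. The 1000 measured genes of chromosome 7 had a median of 0.04. The leukocyte markers summed to 8.38 and 8.45 CPM, with 1 of 11 at 0 in both libraries, but single markers went both ways. Laptm5 had 8 and 71 counts, whereas Ptprc had 23 and 8, Fcer1g 7 and 0, Lyz2 6 and 0, Itgb2 20 and 15, Coro1a 117 and 104 and Cd68 245 and 230. Their part in the values of the block was not tested.

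Members of this block resemble each other, so reads may have been split or shared between them. The share of 50-base stretches of a gene's annotated transcripts (GENCODE M21) that also occur in another gene was 5.98% for Trim30a and 7.49% for Trim30d, mostly from one another. It was 10.4% for Trim12a, 33.0% for Trim12c and 36.3% for Trim5, with Trim5 and Trim12c sharing most with each other. For Trim34a it was 39.8% and for Trim34b 56.8%, each with the other. The values of Trim5, Trim12c, Trim34a and Trim34b are therefore less certain than those of Trim30a. The aligner's handling of reads with several matches is not given in the sources used here.

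**Figure D3:**
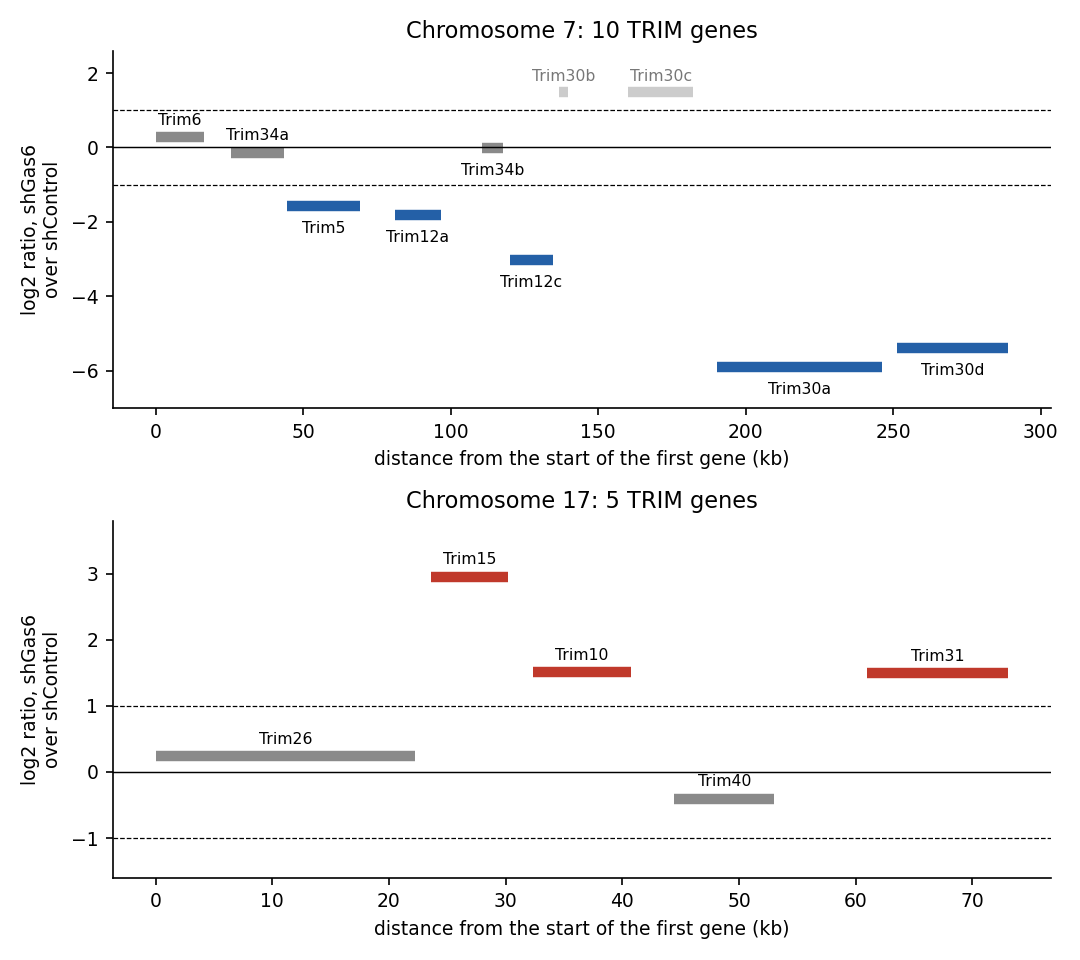
Log2 ratio of scaled counts (vertical axis, shGas6 over shControl) against the distance from the start of the first gene in kb (horizontal axis) for the TRIM blocks on chromosomes 7 and 17; each bar spans 1 gene, solid lines mark equal levels and dashed lines 2-fold. Pale grey bars (Trim30b, Trim30c) are genes under 1 CPM in both libraries, placed above the zero line to show their position only. In the upper panel 5 genes lie below the lower dashed line and Trim6, Trim34a and Trim34b lie between the dashed lines; in the lower panel Trim15, Trim10 and Trim31 lie above.

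The promoters of the lower genes are shown because all 5 hold the same short element close to a start. The sequence searched on both strands was GAAANNGAAA, the core of the interferon-stimulated response element, to which interferon-activated transcription factors bind, in windows from 250 bases before to 50 bases after each annotated start (RefSeq, GRCm38.p6). It occurred in 3.99% of the 27025 genes with such a window. Among the 10 genes of the block it occurred in 6, namely Trim5, Trim12a, Trim12c, Trim30a, Trim30d and Trim34a. Each match with 10 bases on either side is given below on the strand of the gene, where it reads as the reverse complement, with the match in capitals.
Trim30a, chr7:104465210-104465239, minus strand: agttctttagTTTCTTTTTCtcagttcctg
Trim30a, second start, chr7:104446104-104446133, minus strand: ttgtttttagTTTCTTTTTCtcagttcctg
Trim30d, chr7:104507871-104507900, minus strand: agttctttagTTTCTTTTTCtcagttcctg
Trim12c, chr7:104353359-104353388, minus strand: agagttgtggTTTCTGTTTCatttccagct
Trim12a, chr7:104315466-104315495, minus strand: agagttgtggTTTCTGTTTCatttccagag
Trim5, chr7:104288136-104288165, minus strand: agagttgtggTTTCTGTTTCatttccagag
Trim34a, chr7:104244457-104244486, plus strand: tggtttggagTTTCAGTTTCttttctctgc

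The windows of Trim30a (first start) and Trim30d were identical over 30 bases, and so were those of Trim12a and Trim5. The match began 36 bases before the first Trim30a start, 41 before that of Trim30d, 49 before that of Trim5 and 29 before that of Trim12c, whereas in Trim12a and Trim34a it began 11 bases into the transcript. Of the 4 members of the block without a match, Trim34b had 54 counts in each library, Trim6 was 1.21-fold higher, Trim30c went from 7 counts to none and Trim30b had none. Trim34b shares 56.8% of its 50-base stretches with Trim34a, which makes its counts less certain. To show the element in its longer context, the 250 bases before the first Trim30a start (chr7:104465194-104465443, minus strand) follow, with the match in capitals. Beside them is the same stretch for Trim34b (chr7:104329221-104329470, plus strand), as 1 example without a match.
Trim30a: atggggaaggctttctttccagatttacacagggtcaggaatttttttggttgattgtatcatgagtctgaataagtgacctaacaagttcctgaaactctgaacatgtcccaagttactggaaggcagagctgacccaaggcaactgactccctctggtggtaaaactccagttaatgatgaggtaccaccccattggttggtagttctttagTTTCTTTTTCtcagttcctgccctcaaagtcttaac
Trim34b: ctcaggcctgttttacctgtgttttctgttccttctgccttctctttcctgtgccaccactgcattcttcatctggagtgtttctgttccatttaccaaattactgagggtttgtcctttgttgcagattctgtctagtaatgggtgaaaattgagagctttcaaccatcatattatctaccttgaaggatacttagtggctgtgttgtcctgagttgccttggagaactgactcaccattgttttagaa

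Members with near-identical windows share their ancestry and are not independent examples, and a match did not go with a lower level in every member. Of the 53 members with a promoter window, 9 held the element, and of these 5 were at least 2-fold lower and the other 4, Trim2, Trim21, Trim26 and Trim34a, stayed within 2-fold. Of the 44 members without it, 5 were at least 2-fold higher, 19 were within 2-fold and the others were not measured. Over all measured genes with a window, 14.1% of the 383 that held the element were at least 2-fold lower in shGas6, against 5.55% of the 9704 without it, while 8.36% and 8.59% were higher. These shares are a description of the same libraries, with no test. For the gamma-activated site (TTCNNNGAA, both strands), found in 9.55% of all genes, the windows of 6 members held a match (Trim15, Trim30c, Trim31, Trim38, Trim45 and Trim46). None of these was measured and 2-fold lower, 2 (Trim15 and Trim31) were 2-fold higher, and 2 (Trim45 and Trim46) stayed within 2-fold. Trim31 reached 1 CPM in shGas6 only and so had to differ. Over all measured genes with a window, 6.90% with that site and 5.79% without it were lower, while 7.62% and 8.67% were higher. These matches describe letters in a window and were not measured as binding.

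Beyond the 5 lower genes, the interferon-inducible or antiviral members were mixed. Of 18 genes of this list, 15 were measured, 5 of them 2-fold lower or more, 2 higher by that much and 8 within 2-fold. The median log2 ratio of the 15 was -0.15. The 5 lower genes were 33.3% of the 15 and the 2 higher genes 13.3%, against 6.21% and 8.66% of all measured genes. Trim5, Trim30a and Trim30d reached 1 CPM in shControl only and Trim31 in shGas6 only, so these had to differ. With 1 CPM required in both libraries, 2 of the list were lower and 1 was higher. Among the 12340 genes of any kind that passed this filter, 477 were lower and 759 higher. The list was also chosen with earlier results of these data known, so these shares support nothing by themselves. Of the 29 measured members outside this list, none was 2-fold lower, which is near the 6.21% of all measured genes, and 5 were higher (17.2%, against 8.66%). Trim56, a ligase that acts on the DNA-sensing adaptor STING, had 1409 counts in shControl and 3207 in shGas6, 2.24-fold higher (2.10 to 2.38). Trim31, a ligase for the adaptor MAVS, had 21 and 60 counts, 2.81-fold higher (1.68 to 4.86), at 0.413 and 1.16 CPM. Both were higher in shGas6, opposite in direction to the 5 lower genes of the same list. Trim21, the cytosolic receptor for antibody-coated viruses, had 359 and 334 counts, 1.09-fold lower (0.939 to 1.27). Trim14, a RING-less adaptor at mitochondria, had 1430 and 1309 counts, 1.11-fold lower (1.03 to 1.20). Trim65, a ligase for the RNA sensor MDA5, had 252 and 332 counts, 1.30-fold higher (1.10 to 1.53). Trim38 had no count in either library, where a ceiling of 3 counts corresponds to 0.0590 CPM in shControl and 0.0580 CPM in shGas6.

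The remaining PRY-SPRY and related members held 4 of the 7 higher genes. Of 26 genes in this group, 13 were measured, and their median log2 ratio was 0.33. The 4 higher genes were 30.8% of the 13, against 8.66% of all measured genes, but Trim10 reached 1 CPM in shGas6 only and so had to differ. None was 2-fold lower, against 6.21%, a share at which a count of 0 among 13 is near the background. Trim15, a component of focal adhesions, had 199 and 1570 counts, 3.91 and 30.4 CPM, and was 7.76-fold higher (6.69 to 9.03). Trim10, known from red blood cell development, had 39 and 113 counts, 2.85-fold higher (1.96 to 4.21). Trim7, a glycogenin-binding ligase that also acts on an AP-1 coactivator, had 247 and 629 counts, 2.50-fold higher (2.16 to 2.91). Trim17, a ligase known from neuronal cell death, had 160 and 359 counts, 2.21-fold higher (1.83 to 2.67). Of these, Trim15 was the one that went from a low to a moderate level, while Trim10 went from 0.767 to 2.19 CPM. For Trim17, 17.7% of the 50-base stretches of its transcripts also occur in those of Hist3h2a, which makes its counts less certain. The other 9 lay between Trim40 (1.32-fold lower, 1.20 to 1.46) and Trim47. Trim27, Trim41 and Trim11 were 1.20-fold, 1.18-fold and 1.14-fold lower, Trim39 was 1.31-fold higher, and Trim68 had 106 and 110 counts. Trim8, a regulator of NF-kB and p53, had 4541 and 4740 counts (1.03-fold higher, 0.985 to 1.07).

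Of the 7 higher genes, 3 (Trim15, Trim10 and Trim31) lie in another block of 5 members on chromosome 17, spanning 73.1 kb (36837123 to 36910217) in the MHC region. In order these are Trim26 (36837123 to 36859398), Trim15 (36860690 to 36867367), Trim10 (36869496 to 36877833), Trim40 (36881596 to 36890157) and Trim31 (36898130 to 36910217). Trim26 at one edge had 5442 and 6526 counts. Trim40, a gut-enriched member that lies between Trim10 and Trim31, had 908 and 699 counts and went the other way. The higher genes were therefore not contiguous. Trim10 and Trim31 reached 1 CPM in shGas6 only and so had to differ, and their counting intervals began below 2-fold (1.96 and 1.68). With 1 CPM required in both libraries, Trim15 was the only higher gene left in this block. Within 1 Mb of the block 28 other genes were measured, of which 1 was 2-fold higher and 3 were lower. Over all measured genes the shares were 8.66% and 6.21%. The median log2 ratio of the 28 was -0.01. The 671 measured genes of chromosome 17 had a median of 0.04. A block of Trim75, Trim60 and Trim61 on chromosome 8 was silent apart from 3 counts of Trim61 in shControl. Other members lie in pairs. On chromosome 11, the higher gene Trim7 (48826138 to 48851192) lies beside Trim41 (48806403 to 48818199), and the higher gene Trim17 (58954671 to 58973075) beside Trim11 (58973726 to 58991462). Trim41 and Trim11 were both within 2-fold.

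Trim29 had the largest relative excess in shGas6 of the measured members, at a low level. It encodes a RING-less protein of stratified epithelia. It had 6 and 98 counts, 0.118 and 1.90 CPM, and was 16.1-fold higher (7.12 to 44.8). The 5 epithelial markers, none at 0, summed to 4436 CPM (shControl) and 6846 CPM (shGas6), and their part in this result was not tested. Trim16 and Trim44, the other members grouped here as RING-less, were abundant. Trim16, which takes part in the removal of damaged lysosomes, had 1963 and 3127 counts, 1.57-fold higher (1.48 to 1.66), and Trim44 had 6091 and 5179, 1.20-fold lower (1.15 to 1.24).

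The measured members with a PHD finger and bromodomain, NHL repeats, a COS box, a transmembrane segment, or an ARF, MATH or filamin domain all stayed within 2-fold, 13 genes in all. Only 14.9% of all measured genes passed 2-fold, so this says little about these classes. Among the PHD-bromodomain proteins, Trim24, a coregulator of nuclear receptors and ligase for p53, had 2113 and 3349 counts, 1.56-fold higher (1.48 to 1.65). Trim33, which acts on SMAD4 in TGF-beta signalling, had 2730 and 3611, 1.30-fold higher (1.24 to 1.37), while Trim28 was slightly lower as above. Of the NHL-repeat members, Trim2, a ligase for neurofilament light chain, was 1.45-fold higher (1.39 to 1.51), Trim32, a ligase mutated in a limb-girdle muscular dystrophy, was 1.01-fold higher (0.930 to 1.10), and Trim3 was 1.20-fold lower (1.11 to 1.30). Trim23, which carries an ARF domain, was 1.36-fold lower (1.26 to 1.47), Trim37, a regulator of centrosome assembly, 1.17-fold lower (1.12 to 1.23), and Trim45, which carries a filamin repeat, had 376 and 383 counts. Trim13, a ligase of the endoplasmic reticulum membrane, had 334 and 302 counts. Of the COS-box proteins, Trim46, which bundles microtubules in axons, had 3209 and 2384 counts, 1.37-fold lower (1.30 to 1.44), and Trim36 had 172 and 166. The 5 neuronal markers, 2 of them at 0 in both libraries, summed to 17.8 and 55.1 CPM. Tubb3 made up that difference, while Map2 was lower in shGas6 and Syt1 had 6 counts in each library, and their part in the Trim46 values was not tested.

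**Figure D4:**
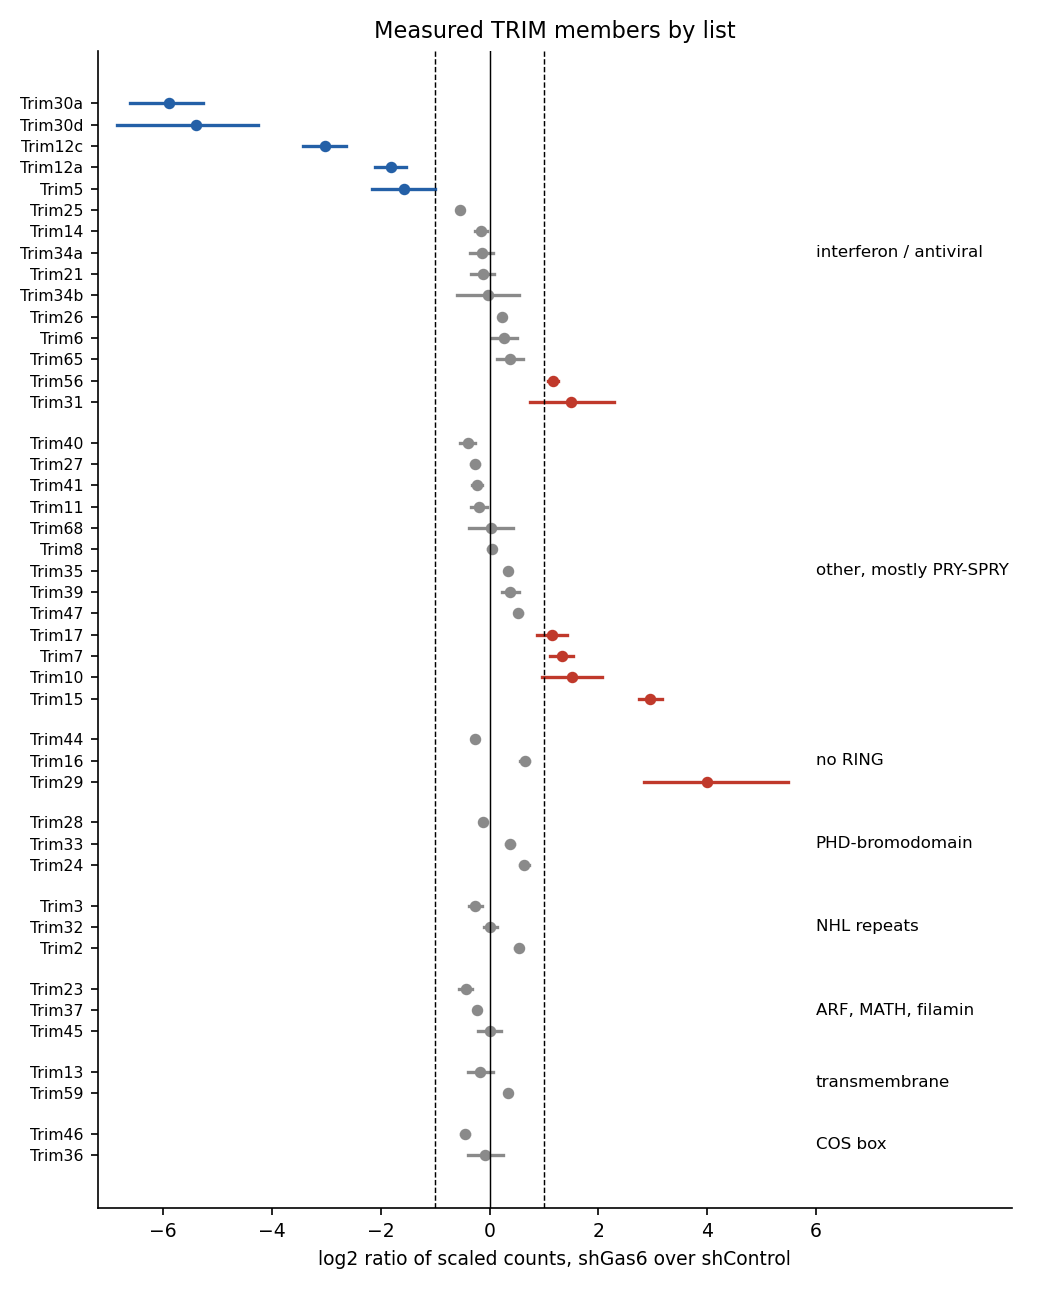
Log2 ratio of scaled counts (horizontal axis, shGas6 over shControl) for the 44 measured TRIM genes, grouped by list; points are ratios, bars the exact 95% counting intervals, the solid line marks equal levels and dashed lines 2-fold. Values left of the lower dashed line occur in the interferon and antiviral list alone among the lists shown, and 8 of the 15 genes of that list lie between the dashed lines.

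Members under 1 CPM in both libraries numbered 11, and 13 had no count at all. The silent genes were Trim9, Trim30b, Trim38, Trim42, Trim43a, Trim43b, Trim43c, Trim50, Trim52, Trim60, Trim63, Trim75 and Trim80, among them the neuronal Trim9 and the muscle-atrophy ligase Trim63. The muscle gene Trim55 had 3 and 31 counts (10.2-fold higher, 3.17 to 51.9), and Trim66, a PHD-bromodomain gene of male germ cells, had 0 and 14 (7.65 to 23.5). With the empty library set at 3 counts Trim66 was 4.59-fold higher, which leaves out the counting error of the 14. Trim55 and Trim66 were both below 1 CPM. The 6 muscle markers, 4 of them at 0 in both libraries, summed to 0 in shControl and 0.483 CPM in shGas6, mostly from Des with 22 counts, and their part in the Trim55 values was not tested. Trim62 had 22 and 31 counts (1.39-fold higher, 0.777 to 2.51). Trim54, Trim58, Trim61, Trim67, Trim69, Trim71 and Trim72 had between 0 and 9 counts in each library, and no fold is given for them.

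Genes that work with TRIM ligases stayed within 2-fold. That mark was passed by 14.9% of all measured genes and 9.21% of the protein-coding genes at 10 CPM or more. All 9 ubiquitin-conjugating enzymes of the partner list were measured, with a median log2 ratio of -0.13, and Ube2k lay furthest from 0 (104.6 and 78.0 CPM, 1.34-fold lower, 1.29 to 1.40). Among 8 partners of Trim28 the median was -0.01, and the KRAB zinc finger gene Zfp57, which keeps imprints, was 1.66-fold higher (1.55 to 1.79). Ratios below 0 occurred in 6809 of the 13367 measured genes and in all 6 genes of the RIG-I pathway, with a median of -0.31 for the 6. The sensor gene Ifih1, for MDA5, was lowest of these at 48.1 and 30.7 CPM, 1.57-fold lower (1.47 to 1.67). Among transcription factors of interferon-inducible genes, Irf7 was 1.51-fold lower (1.45 to 1.56) and Stat2 1.07-fold lower (1.02 to 1.12), whereas Irf9 was 1.48-fold higher (1.41 to 1.55) and Irf1 1.30-fold higher (1.24 to 1.37). The ratios of Irf7, Stat2, Irf9 and Irf1 were thus closer to 1 than those of the 5 lower TRIM genes and differed in sign among themselves.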

How the data were processed

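Poly(A) RNA libraries were made with a stranded kit, per the labels' protocols. Per the submitters' processing notes, reads were trimmed with Trimmomatic and the build was GRCm38 (mm10). Which aligner, counter, strand setting and annotation were used is not given in the sources used here. Without the strand setting, reads of overlapping antisense genes cannot be told apart. The deposited table lists, per the file headers, raw read counts, FPKM and TPM for every gene and library. The counts are the basis of every ratio. The deposited TPM, scaled by the authors to transcript length, was used for levels between genes, and the deposited FPKM as an alternative.

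TMM factors from edgeR 4.0.16 (R 4.3.3) set the library totals. Log2 ratios used a pseudocount of 0.5, and folds used none. Fold intervals are Clopper-Pearson intervals of the split of counts (scipy 1.17.1). Against a library at 0, the fold sets that library at a floor of 3 counts and leaves out the counting error of the other. A gene was called higher or lower by size alone, at 2-fold. Members were matched to coordinates by gene identifier (68 of 68) and to promoter windows (53 of 68). Blocks are runs of 3 or more members whose starts lie within 250 kb of the next. Transcripts for shared stretches were from GENCODE M21, promoters from RefSeq; protein sequences were not used here. The procedure was tested on simulated data. Members and lists were chosen with earlier results of these data known. Genes named with full values are the measured members past 2-fold and the 6 with the highest mean TPM; other members follow their lists. A gene of the partner lists is not reported here.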

Additional observations from a re-analysis of the deposited data

How the results depend on the processing

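The 12 TRIM genes past 2-fold were the same 12 under total count scaling, DESeq2 1.42.0 size factors, upper quartile scaling, a pseudocount of 5, the deposited TPM and the deposited FPKM (both with a pseudocount of 0.1), and the inclusion of every Trim symbol of any biotype. Counts below are given as higher and lower, first for all TRIM members (7 and 5) and then for the interferon-inducible or antiviral list (2 and 5). With every gene of at least 1 count kept (55 members), they were 11 and 9, then 2 and 6. With 1 CPM required in both libraries they were 4 and 2, then 1 and 2, since this filter removes Trim5, Trim10, Trim29, Trim30a, Trim30d and Trim31. At 5 CPM in at least 1 library they were 4 and 3, then 1 and 3. At 4-fold they were 2 and 3, then 0 and 3. At 1.5-fold they were 9 and 5. With the whole counting interval beyond 2-fold they were 4 and 5, then 1 and 5. Among all genes, higher and lower counts were 4211 and 3520 of 22544 with at least 1 count. They were 759 and 477 of 12340 with 1 CPM in both libraries, and 730 and 466 of 11118 at 5 CPM. Of the 13367 measured genes, 424 and 345 passed 4-fold, and 2147 and 1681 passed 1.5-fold. For 876 and 596 of them the whole counting interval lay beyond 2-fold. The median log2 ratio of all members (-0.01) lay between -0.05 and 0.03 over the settings that give one, changing sign, and that of the list (-0.15) between -0.19 and -0.09. Of 114 values of 19 named genes under 6 settings, none changed sign and 10 left the gene's counting interval. These were values of Trim12c, Trim25, Trim28, Trim29, Trim30a, Trim30d and Trim35. On the deposited FPKM the log2 ratio was -4.90 for Trim30a, -3.32 for Trim30d and 2.39 for Trim29. A pseudocount of 0.1 draws ratios of values that low towards 0. In the lower library the deposited TPM of these 3 genes was 0.199, 0.0625 and 0.0696. How much of the shift the pseudocount made was not tested. No paired analysis was possible because each group has 1 library. Leaving out a replicate was not possible for the same reason.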

Other observations

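TRIM-type proteins under other symbols were outside the rule for members. Pml, the scaffold of nuclear bodies and an interferon-inducible gene, had 5752 counts in shControl and 3915 in shGas6, 1.495-fold lower (1.44 to 1.56). The microtubule-associated ligase genes Mid1 and Mid2 were 1.13-fold lower (1.03 to 1.23) and 1.32-fold lower (1.26 to 1.39). The pseudogene Trim30e-ps1 and the TRIM-like genes Triml1 and Triml2 were at 0 in both libraries.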
